A study of Mus musculus with 6 samples.

Results

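Hepatocytes seal the bile canaliculus, the narrow lumen between adjacent cells, with tight junctions, and 9 genes that encode parts of this seal were followed in mouse liver with and without LKB1. They are the claudin genes Cldn1, Cldn2, Cldn3, Cldn12 and Cldn14, the occludin gene Ocln, the adhesion molecule gene F11r, and the cytoplasmic proteins Tjp1 (ZO-1) and Cgn (cingulin). They were chosen by name, as claudins and junction proteins of hepatocytes, and each matched 1 of the 55450 gene rows in the deposited table. Poly(A) RNA came from the left liver lobe of 6 mice of 10 weeks, labelled strain C57BL/J, 1 library per mouse. The 3 knockout (KO) mice carried LKB1 fl/fl alleles, in which loxP sites flank the part to be deleted, and the 3 wild-type (WT) mice did not. All 6 mice, controls included, received AAV8 Cre, an adeno-associated virus that brings the Cre recombinase mainly to hepatocytes, at 6 weeks of age, and were killed 4 weeks later. The promoter that drives Cre is not given in the sources used here, and the lobe holds cells other than hepatocytes.

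In a tight junction, claudins span the membrane 4 times and pair with claudins of the next cell, where they form a barrier or, for some members, a pore for small ions. Occludin and its relatives of the MARVEL family sit in the same strands, the immunoglobulin-type protein JAM-A (F11r) holds the cells together beside them, and ZO proteins and cingulin tie the strands to actin and myosin. LKB1, encoded by Stk11, is the mammalian form of the polarity kinase Par-4 and activates AMPK and the MARK (Par-1) kinases, which take part in the placing of junctions and canaliculi. The comparison asks whether transcripts of the junction differed between KO and WT liver, and the series title names metabolic reprogramming as the study's subject.

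Total counts ran from 47659122 to 56147667 per library. Stk11 checked the labels, with 22.1, 14.4 and 11.4 CPM (counts divided by library size, as CPM, with the sizes adjusted by TMM, the trimmed mean of M-values) in KO replicates 1 to 3 and 66.1, 64.2 and 69.7 CPM in WT. It fell by 2.06 ± 0.247 (SE) on the log2 scale with an adjusted p of 0.0167 in edgeR, and counts over the whole gene cannot separate the deleted exons from the rest. That call was lost without KO 2, KO 3, WT 2 or WT 3 (adjusted p 0.0607 to 0.104). Replicate 1 of each group stood apart, with 42472 (KO) and 29243 (WT) counts of Xist and at most 6 counts over 4 Y-linked genes, against 6146 to 8199 Y-linked counts in the other 4 libraries. KO 1 was also the knockout with the most Stk11 RNA, so the 9 genes are given over all 6 libraries, in the 4 Y-linked libraries (2 KO against 2 WT), and for KO 1 against WT 1, which has no replicate check. The hepatocyte marker list (8 genes, among them Alb, Ttr and Hnf4a) was high in every library, with summed levels of 23980 to 77774 CPM in KO and 94473 to 137214 CPM in WT. By edgeR 0 of the 8 markers passed the threshold, against 3.37% of all genes tested. At an unadjusted p under 0.05 there were 3, against 26.3% of all genes. In KO 5 were lower and 1, Hnf4a, higher without overlap, against 15.5% and 16.9% of all genes. The median log2 fold change of the 8 markers was -0.91. The part of this list in the values of the 9 genes was not tested.

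Positions are given on build GRCm38. Cldn1 (ENSMUSG00000022512.3) is at chromosome 16, 26356642 to 26371841, minus strand, and Cldn14 (ENSMUSG00000047109.13) at chromosome 16, 93919031 to 94008837, minus strand. Cldn3 (ENSMUSG00000070473.4) is at chromosome 5, 134986214 to 134987472, plus strand, and Cldn12 (ENSMUSG00000046798.14) at chromosome 5, 5489537 to 5514958, minus strand. Cldn2 (ENSMUSG00000047230.6) is X-linked, at 139800828 to 139811386 on the plus strand. Ocln (ENSMUSG00000021638.12) is at chromosome 13, 100496507 to 100552718, minus strand, and F11r (ENSMUSG00000038235.4) at chromosome 1, 171437535 to 171464603, plus strand. Tjp1 (ENSMUSG00000030516.14) is at chromosome 7, 65296165 to 65527781, minus strand, and Cgn (ENSMUSG00000068876.14) at chromosome 3, 94760069 to 94786492, minus strand. All 9 are protein-coding, and annotated genes that overlap them had at most 2 counts in any library. Cgn was the only one with counts that were not whole, in 6 of 6 libraries, as happens where reads are shared out among similar sequences.

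Promoter sequences are shown for 4 of these genes, chosen after the values were seen because Cldn1, Cldn2 and Cgn varied together over the libraries while F11r varied the opposite way. Each run holds the 220 bases from 250 to 31 before the RefSeq start (RefSeq, GRCm38.p6), 5′ to 3′ on the gene's strand, with motif matches in capitals.
Cldn1: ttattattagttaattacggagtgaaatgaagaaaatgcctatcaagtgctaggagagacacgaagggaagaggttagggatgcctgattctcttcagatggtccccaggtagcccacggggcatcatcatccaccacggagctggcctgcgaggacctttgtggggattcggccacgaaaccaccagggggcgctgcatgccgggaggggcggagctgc
Cldn2: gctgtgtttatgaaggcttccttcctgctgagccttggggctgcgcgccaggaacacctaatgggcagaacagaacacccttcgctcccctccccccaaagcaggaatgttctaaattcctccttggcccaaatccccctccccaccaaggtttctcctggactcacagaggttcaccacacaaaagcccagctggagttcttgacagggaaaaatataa
Cgn: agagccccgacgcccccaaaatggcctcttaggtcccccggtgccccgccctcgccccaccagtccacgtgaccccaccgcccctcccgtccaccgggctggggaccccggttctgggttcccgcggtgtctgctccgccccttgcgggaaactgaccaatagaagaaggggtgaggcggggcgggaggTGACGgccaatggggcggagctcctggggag
F11r: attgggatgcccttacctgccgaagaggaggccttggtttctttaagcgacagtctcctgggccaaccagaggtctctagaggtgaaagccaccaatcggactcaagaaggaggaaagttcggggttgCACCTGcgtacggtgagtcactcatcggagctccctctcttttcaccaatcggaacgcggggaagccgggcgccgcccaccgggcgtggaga

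The windows lie at chr16:26371870-26372089 for Cldn1 and chrX:139800558-139800777 for Cldn2. Those of Cgn and F11r are chr3:94786513-94786732 and chr1:171437311-171437530, and the F11r window also overlaps an exon of the noncoding gene Gm26641. Both strands of the 14 start-site windows of the 9 genes, and of all 32851 windows in the same table, were searched for 5 motifs. These were the cAMP response element TGACGTCA, its core TGACG (which the full element contains), the Snail E-box CAGGTG, a TCF/LEF site ATCAAAG and an HNF4A site CAAAGTCCA. The Cgn capitals are a TGACG core at bases 61 to 57 before the start, and the F11r capitals are the E-box on the minus strand at bases 122 to 117. The Cldn1 and Cldn2 windows held none of the 5 motifs. Elsewhere TGACG was found in windows of Cldn3 and Cldn14, and CAGGTG 2 times in 1 of the Ocln windows. That Ocln window overlaps annotated exons of Ocln itself, and both matches lie within the annotated gene. Over all windows the shares with a match were 1.14% for the full element, 14.8% for TGACG, 15.5% for CAGGTG, 2.91% for ATCAAAG and 0.329% for CAAAGTCCA.

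Over all 6 libraries, 8 of the 9 genes had a negative log2 fold change and 1, F11r, a positive one, but none of these differences passed an adjusted p of 0.05. In edgeR's quasi-likelihood test 0 of 9 were called, against 3.37% of the 14539 genes tested (1.22% lower and 2.15% higher in KO). At an unadjusted p under 0.05 there were 2, Ocln and Cldn1, against 26.3% of all genes, and DESeq2 called 1, Ocln (15.8% of all genes by that tool). The KO and WT values did not overlap for 3 of the 9, Cldn1, Cldn12 and Ocln, all lower in KO, against 32.4% of all genes (15.5% lower and 16.9% higher). The median log2 fold change of the 9 was -0.28, beside 0.01 over all genes tested. The summed level of the 9 genes was 493, 451 and 381 CPM in KO and 566, 556 and 529 CPM in WT. In these bulk samples fewer cells of a type and less RNA per cell cannot be told apart.

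**Figure D1:**
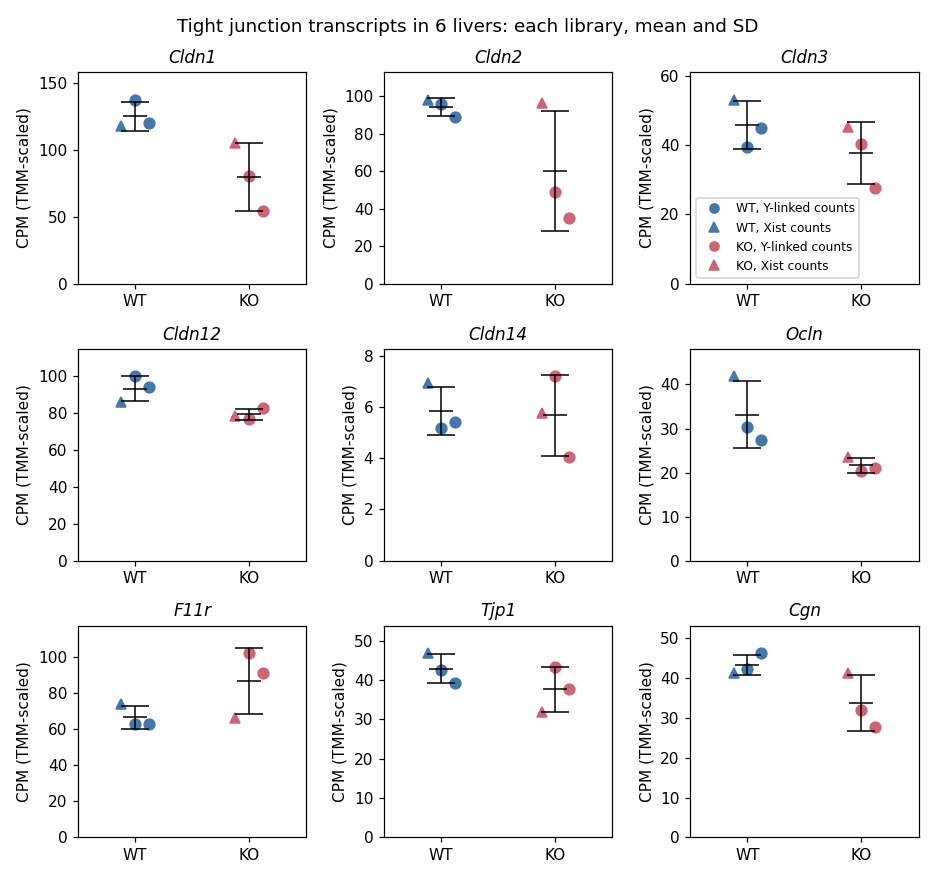
Level of each of the 9 genes in CPM (y axis, from 0) in the 3 WT and 3 KO libraries, with the mean and SD in black. Triangles are the libraries with Xist counts. In the panels of Cldn1, Cldn12 and Ocln each KO point lies below each WT point, and KO replicate 1 lies at the WT level for Cldn2 and Cgn.

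Cldn1 encodes the barrier-forming claudin-1, which is also a hepatitis C virus entry factor in human hepatocytes. It had 105, 80.4 and 54.3 CPM in KO replicates 1 to 3 and 117, 138 and 120.2 CPM in WT. All 3 KO libraries were below the lowest WT library, KO 1 by the least. Mean levels were 79.8 ± 25.2 CPM (KO) and 125 ± 10.9 CPM (WT), as mean ± SD of 3 mice. On the log2 scale the difference was -0.65 ± 0.241 (SE; 95% interval -1.22 to -0.08), with an edgeR adjusted p of 0.152.

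Cldn2 encodes claudin-2, a pore-forming claudin for sodium ions and water, which in rodent liver is graded towards the central vein. It had 96.1, 49.0 and 34.9 CPM in KO and 98.3, 96.0 and 88.8 CPM in WT. KO 1 lay among the WT libraries, while KO 2 and KO 3 were well below all of them. The mean was 60.0 ± 32.1 CPM (KO) and 94.4 ± 4.95 CPM (WT), with the SD over 3 mice, a coefficient of variation of 53.5% in KO and 5.24% in WT. The log2 fold change was -0.65 ± 0.350 (SE; 95% interval -1.48 to 0.18), with an adjusted p of 0.282 in edgeR.

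The other 3 claudins differed by less. Cldn3, a barrier-forming claudin of hepatocytes and bile ducts, had 45.2, 40.3 and 27.8 CPM in KO and 53.2, 39.4 and 45.0 CPM in WT. The groups overlapped, with a log2 fold change of -0.28 (95% interval -0.78 to 0.21, edgeR adjusted p = 0.426), which ran from -0.44 (without KO 1) to -0.10 (without KO 3) when 1 library was left out. Cldn12, an atypical claudin that lacks the usual binding motif for ZO proteins, had 78.6, 76.5 and 82.7 CPM in KO and 85.9, 99.9 and 94.1 CPM in WT. Its groups did not overlap, but the difference was small, -0.24 on the log2 scale (95% interval -0.52 to 0.05, edgeR adjusted p = 0.261). Cldn14, known for inherited deafness when it is lost, was the scarcest of the 9, with 5.78, 7.20 and 4.05 CPM in KO and 6.94, 5.19 and 5.41 CPM in WT. Its log2 fold change was -0.04 (95% interval -0.63 to 0.55, edgeR adjusted p = 0.931), and its sign turned in 4 of 14 other settings.

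Ocln, the gene of occludin, had the smallest p-value of the 9. It had 23.4, 20.4 and 21.03 CPM in KO and 41.9, 30.3 and 27.3 CPM in WT. The KO libraries were close together, and the WT spread came mainly from WT 1. Averaged over 3 mice, the levels were 21.6 ± 1.61 (SD) CPM for KO and 33.2 ± 7.68 (SD) CPM for WT. The fitted log2 difference was -0.62 ± 0.179 (SE; 95% interval -1.04 to -0.19), with an edgeR adjusted p of 0.0947. With the Xist or Y-linked state as an added term, a fit that called 10.3% of all genes, Ocln was the 1 member called (-0.60, edgeR adjusted p = 0.0376).

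F11r encodes JAM-A, which recruits the polarity protein PAR-3 to new cell contacts. It had 66.2, 102 and 91.2 CPM in KO and 74.0, 62.5 and 62.6 CPM in WT. KO 2 and KO 3 were above all WT libraries, while KO 1 lay between the WT values. The log2 fold change was 0.38 ± 0.185 (SE; 95% interval -0.06 to 0.82), with an edgeR adjusted p of 0.241.

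Of the cytoplasmic proteins, Tjp1, the scaffold ZO-1 that binds claudins and occludin, had 31.8, 43.3 and 37.8 CPM in KO and 46.8, 42.5 and 39.3 CPM in WT. The groups overlapped, with a log2 fold change of -0.19 (95% interval -0.54 to 0.16, edgeR adjusted p = 0.449), which ran from -0.30 (without KO 2) to -0.09 (without KO 1) when 1 library was left out. Cgn, cingulin, which links ZO proteins to actomyosin, had 41.3, 31.9 and 27.8 CPM in KO and 41.2, 42.3 and 46.2 CPM in WT. KO 1 matched the lowest WT library and the other KO libraries were lower. The log2 fold change of Cgn was -0.36 ± 0.166 (SE; 95% interval -0.75 to 0.03), with an edgeR adjusted p of 0.221.

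The 4 libraries with Y-linked counts gave another picture. There 5 of the 9 genes passed an adjusted p of 0.05 in edgeR, Cldn1, Cldn2, Ocln and Cgn as lower and F11r as higher in KO, while the same fit called 33.3% of all genes (16.1% lower and 17.2% higher). Cldn2 fell by 1.14 ± 0.179 (SE, adjusted p = 0.00812) and Cldn1 by 0.94 ± 0.208 (adjusted p = 0.0220) on the log2 scale. Cgn fell by 0.57 ± 0.116 (adjusted p = 0.0169) and Ocln by 0.48 ± 0.106 (adjusted p = 0.0216). F11r rose by 0.62 ± 0.112 (adjusted p = 0.0121). Cldn3, Cldn12, Cldn14 and Tjp1 were not called, and the Tjp1 interval ran from -0.31 to 0.26. Leaving out KO 1 alone, with WT 1 kept, gave the same 5 calls beside 30.2% of all genes. These fits hold 2 KO libraries, and their p-values rest on a spread estimated from few residual degrees of freedom.

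In the pair with Xist counts, KO 1 was below WT 1 for 8 of the 9 genes, and Cgn was level. The largest log2 ratios of that pair were -0.84 for Ocln and -0.56 for Tjp1, whereas Cldn2 had -0.03, Cldn1 -0.16 and F11r -0.16. The ratios of Cldn3, Cldn12 and Cldn14 there were -0.23, -0.13 and -0.26. The corresponding ratios of means in the libraries with Y-linked counts were -0.47 for Ocln, -0.02 for Tjp1, -1.14 for Cldn2, -0.94 for Cldn1 and 0.63 for F11r. A test of the difference between the states (the interaction of group and state, with 2 residual degrees of freedom) passed for 0 of the 9 genes in edgeR, against 2.9% of all genes. At an unadjusted p under 0.05 there were 4 of 9, Cldn2, Tjp1, F11r and Cgn, against 20.9% of all genes. The smallest adjusted p was 0.112, for F11r. Stk11 was at 22.1 CPM in KO 1, against 14.4 and 11.4 CPM in KO 2 and KO 3. The state of a library, its being replicate 1 and, in KO, this higher Stk11 level cannot be told apart. With 1 library per group in the state with Xist counts, the spread there is unknown.

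**Figure D2:**
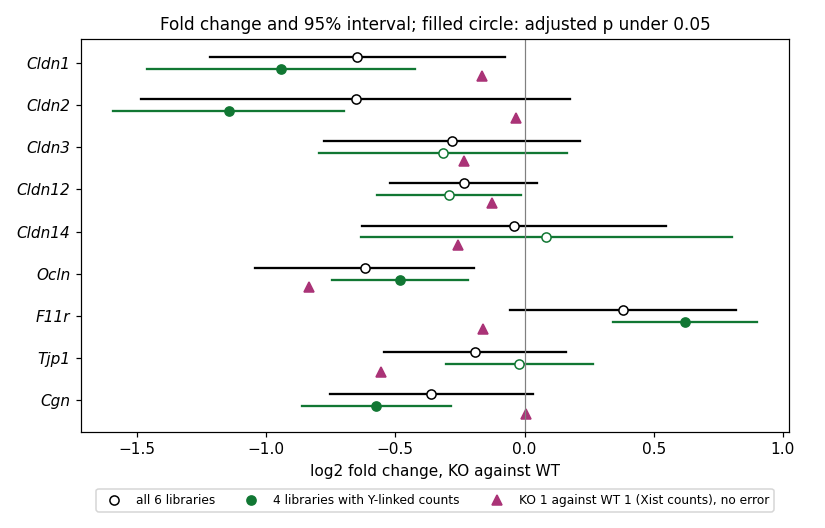
Log2 fold change of KO against WT (x axis) for the 9 genes, with 95% intervals, over all 6 libraries (black) and in the 4 Y-linked libraries (green), filled where the edgeR adjusted p is under 0.05. Triangles give KO 1 against WT 1, with no error. No black circle is filled, while 5 green circles are, and for Cldn2 the triangle is near 0 with the green value at -1.14.

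Per kilobase of merged exons F11r and 4 of the 5 claudins were the abundant transcripts, and Cldn14 was the scarcest. In WT the length-scaled level was 36.4 ± 5.52 CPM per kb for Cldn3, 28.4 ± 1.49 for Cldn2, 25.8 ± 2.25 for Cldn1, 24.9 ± 2.49 for F11r and 22.1 ± 1.67 for Cldn12 (SD, n = 3 each). It was 7.85 ± 1.82 CPM per kb for Ocln, 7.19 ± 0.436 for Cgn, 5.49 ± 0.481 for Tjp1 and 2.75 ± 0.448 for Cldn14. The values of neighbours in this order overlapped between Cldn2 and Cldn1, Cldn1 and F11r, F11r and Cldn12, and Ocln and Cgn. Cldn3 was first in 3 of 3 WT libraries and in KO 1. In KO 2 and KO 3 F11r was first, with 38.3 and 34.2 CPM per kb, and Cldn2, the gene ranked 2 in each WT library and in KO 1, was ranked 5 there. Merged exons are longer than any single transcript where a gene has several isoforms, so this scale lowers such genes.

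**Figure D3:**
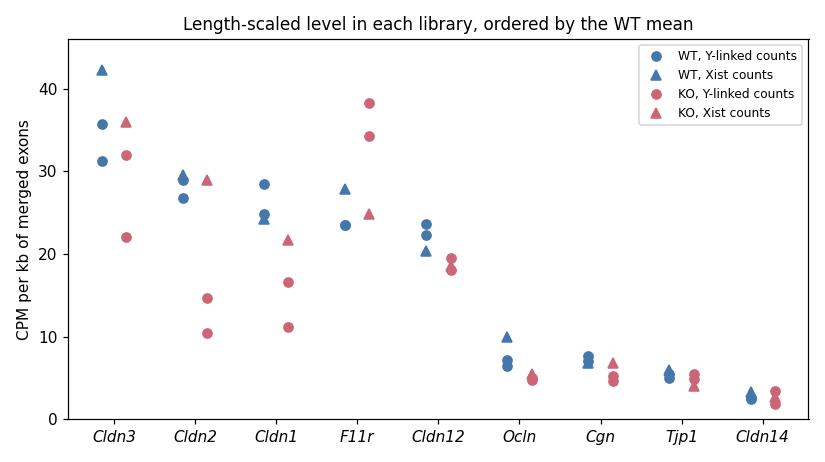
Level per kilobase of merged exons (y axis, CPM per kb, from 0) in each library, with genes in the order of the WT mean from Cldn3 at 36.4 to Cldn14 at 2.75. Blue is WT, red is KO and triangles are the libraries with Xist counts. F11r is highest in KO 2 and KO 3, where Cldn2 is at 14.7 and 10.5.

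Over the 6 libraries the levels of Cldn1, Cldn2 and Cgn went together, with Pearson r on log2 CPM of 0.95 for Cldn1 with Cldn2, 0.96 for Cldn2 with Cgn and 0.95 for Cldn1 with Cgn. F11r ran against them, with r of -0.81, -0.85 and -0.90. Tjp1 was nearly unrelated to Cldn2 and Cgn, at 0.03 and 0.01. These 36 coefficients describe 6 points that share the difference between the groups and that between KO 1 and the other KO libraries. Among 9140 other genes with a mean of at least 5 CPM, the highest r with Cldn2 was 0.99 for Mapk1ip1 and Il4ra (0.988), with Cldn1 0.99 for Mettl27 and 0.98 for Ctns, and with Cgn 0.996 for Hnrnph3 and 0.99 for Slc25a30. For F11r they were Msrb3 (0.999) and Nmi (0.996), for Ocln Kalrn (0.993) and Ctso (0.99), for Tjp1 Anp32e (0.989) and Fip1l1 (0.974). For Cldn3 they were Zbtb4 (0.992) and Kdm2b (0.984), for Cldn12 Chuk (0.996) and Ehmt1 (0.994), and for Cldn14 Lyve1 (0.976) and Akap2 (0.967). Coefficients of this size arise readily over 6 libraries when many genes are compared.

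**Figure D4:**
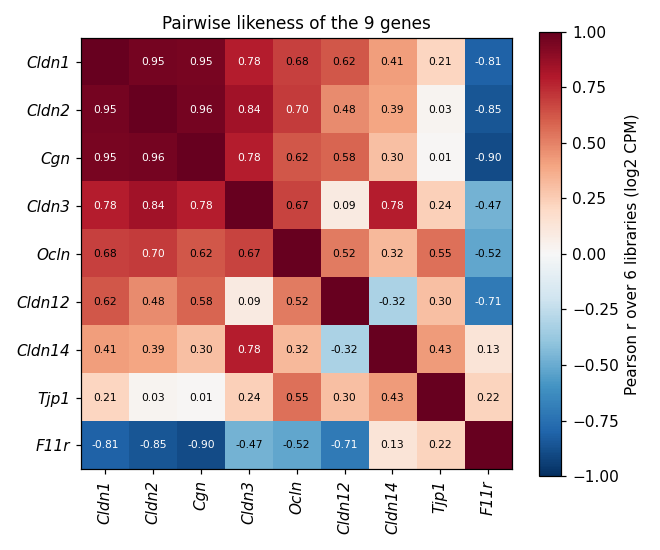
Pearson r of log2 CPM over the 6 libraries for each pair of the 9 genes, from -1 (blue) to 1 (red). Cldn1, Cldn2 and Cgn form a block at 0.95 to 0.96, and F11r is negative with these genes, down to -0.90 with Cgn.

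The other 24 claudin genes were scarce in liver. 12 had 0 counts in all 6 libraries, 6 had enough counts to be tested, and 0 of these 6 passed the threshold in edgeR. At an unadjusted p under 0.05 there were 2 of the 6, against 26.3% of all genes. Cldn5, the claudin of endothelium, had 3.53, 2.39 and 2.61 CPM in KO and 5.17, 4.32 and 4.15 CPM in WT (log2 fold change -0.67, edgeR adjusted p = 0.121). Cldn5 was called as lower in the 4 Y-linked libraries (-0.76, adjusted p = 0.0315), without KO 1 (0.0223) and with the state as an added term (0.0474). Those fits called 33.3%, 30.2% and 10.3% of all genes, in that order. The 10 endothelial markers, Pecam1 and Cdh5 among them, summed to 107 to 171 CPM in KO and 205 to 279 CPM in WT, with 0 of 10 called. At an unadjusted p under 0.05 there were 8, against 26.3% of all genes tested. Lower without overlap were 8 of 10, against 15.5% of all genes. The part of the endothelial markers in the Cldn5 values was not tested. Cldn4, an epithelial claudin, was near the limit of detection, at 0.257, 0.324 and 0.467 CPM in KO and 0.158, 0.135 and 0.0855 CPM in WT (log2 fold change 1.44, edgeR adjusted p = 0.108). Cldn4 was called as higher in the 4 Y-linked libraries (1.79, adjusted p = 0.0414) and without KO 1 (0.0413), beside the same 33.3% and 30.2% of all genes. Cldn7, a claudin of bile ducts, had 0.252 to 0.738 CPM in KO and 0.231 to 0.651 CPM in WT. The bile duct markers summed to 34.7 to 101 CPM in KO and 62.6 to 101 CPM in WT, with Krt19 at 0.576 to 1.79 CPM over all libraries. For Cldn3, which bile ducts share, a part of these cells was not tested.

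Among 19 tested genes of 20 other tight junction proteins, 1 was called as higher in KO and 0 as lower, against 2.15% and 1.22% of all genes. At an unadjusted p under 0.05 there were 11, against 26.3% of all genes. Without overlap 7 were lower and 4 higher in KO, against 15.5% and 16.9% of all genes. Log2 fold changes ran from -1.73 to 3.64, with a median of -0.09. The called gene was Marveld3, which encodes a MARVEL protein related to occludin. It had 1.89, 10.7 and 9.30 CPM in KO and 0.670, 0.501 and 0.577 CPM in WT, from 26 to 34 counts per WT library. Every KO library was above every WT library, and KO 2 and KO 3 far more so than KO 1. The log2 fold change was 3.64 ± 0.647 (SE, adjusted p = 0.0392 in edgeR), or 12.4-fold. In limma voom its adjusted p was 0.117 and with the replicate block 0.0859, and it was above 0.05 in edgeR in 5 of the 6 fits that left out a library (0.0906 to 0.201), all but the one without KO 1 (0.000507). Occludin itself had a negative fold change while Marveld3 rose, and the third MARVEL gene, Marveld2 (tricellulin, chosen after its values were seen), had overlapping groups, 9.92 to 16.1 CPM in KO and 10.9 to 14.5 CPM in WT.

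Of 19 polarity genes (PAR, Crumbs and Scribble complexes and the MARK kinases) 0 were called in edgeR, with log2 fold changes from -0.70 to 0.47. At an unadjusted p under 0.05 there were 2, against 26.3% of all genes. Those 2 were Prkcz, an atypical protein kinase C of the PAR complex (16.7, 10.7 and 11.2 CPM in KO, 16.7, 22.2 and 24.1 CPM in WT, adjusted p = 0.114), and Crb3 of the Crumbs complex (8.82, 12.6 and 10.7 CPM in KO, 8.12, 7.44 and 7.59 CPM in WT, adjusted p = 0.138). In the 4 Y-linked libraries both were called in edgeR, Prkcz as lower (-1.08, adjusted p = 0.00235) and Crb3 as higher (0.63, adjusted p = 0.0221). Both were also called without KO 1 (0.0126 and 0.0229), and DESeq2 called Prkcz over all 6 (0.0440). These fits called 33.3%, 30.2% and 15.8% of all genes, in that order. Of 12 adherens junction genes 0 were called and 3 had an unadjusted p under 0.05, against 26.3% of all genes. Nectin1 and Cdh2 (N-cadherin) had the smallest p-values, with log2 fold changes of -0.45 and -0.46 and edgeR adjusted p of 0.0912 and 0.123. Both were called as lower in the 4 Y-linked libraries (adjusted p = 0.0168 and 0.0203) and without KO 1 (0.0118 and 0.0262), and Nectin1 by DESeq2 over all 6 (0.0346). These are the same fits, with the same shares of all genes called. Of 7 gap junction and desmosome genes 3 had an unadjusted p under 0.05, against 26.3% of all genes. Lower without overlap were 5 of the 7, against 15.5% of all genes, and 0 were higher without overlap. The median log2 fold change was -0.44, and 1 gene was called, as lower, against 1.22% of all genes. This was Dsg2, a desmosomal cadherin, at 94.7, 74.6 and 86.3 CPM in KO and 190.3, 167 and 159 CPM in WT. Dsg2 fell by 1.01 ± 0.152 (SE, edgeR adjusted p = 0.0275), and its log2 ratio was -1.01 for KO 1 against WT 1 and -1.02 in the other 4 libraries. Its adjusted p was above 0.05 in 5 of the 6 fits that left out a library (0.0604 to 0.153), all but the one without KO 1 (0.00426), and it was 0.0663 with the replicate block.

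**Figure D5:**
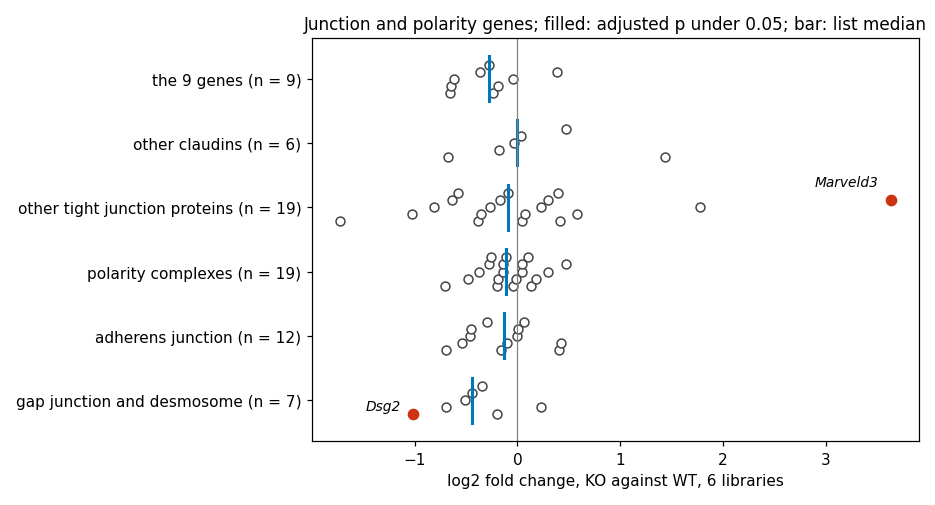
Log2 fold change of KO against WT over 6 libraries (x axis) for the 9 genes and 5 lists of other junction and polarity genes, each circle 1 gene, filled where the edgeR adjusted p is under 0.05, with the list median as a bar. Marveld3 at 3.64 and Dsg2 at -1.01 are the filled circles.

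Cldn2 was set beside 15 pericentral genes and Wnt targets, since it shares the pericentral zone. At an unadjusted p under 0.05 there were 8 of them, against 26.3% of all genes, and the median log2 fold change was -0.74. Without overlap 7 were lower and 1 higher in KO, against 15.5% and 16.9% of all genes. In edgeR 1 of the 15 was called as lower and 1 as higher, against 1.22% and 2.15% of all genes. The lower one was Cyp1a2, a cytochrome P450 (291, 241 and 259 CPM in KO, 539, 741 and 750.2 CPM in WT, log2 fold change -1.36, adjusted p = 0.0259), and its call was lost without KO 2, KO 3, WT 2 or WT 3 (adjusted p 0.0795 to 0.150) and with the replicate block (0.0818). The higher one was Oat, ornithine aminotransferase (3832, 3568 and 4983 CPM in KO, 538, 537 and 482 CPM in WT, log2 fold change 2.99, adjusted p = 0.0047), lost without WT 2 or WT 3 (adjusted p 0.0639 and 0.0613). Glul had 476, 30.2 and 76.6 CPM in KO and 926 to 1089.5 CPM in WT, and Cyp2e1 2167, 463 and 918 CPM in KO and 5521 to 6754 CPM in WT. Like Cldn2, both were highest in KO 1 among the KO libraries, but unlike Cldn2 they were below WT there too, with log2 ratios in the pair with Xist counts of -1.19 and -1.64. Axin2, a Wnt feedback gene, had 6.14, 6.86 and 6.28 CPM in KO and 8.42, 10.1 and 11.8 CPM in WT (log2 fold change -0.65, edgeR adjusted p = 0.0755), with KO 1 no closer to WT than the other KO libraries. Axin2 was called as lower in the 4 Y-linked libraries (-0.74, adjusted p = 0.0152), without KO 1 (0.0446), with the state as an added term (0.0415) and by DESeq2 (0.0136). Those fits called 33.3%, 30.2%, 10.3% and 15.8% of all genes, in that order. Glul and Cyp2e1 were not called in the main edgeR fit over all 6 libraries (adjusted p = 0.170 and 0.0640). Over all 6, Cyp2e1 was called as lower by DESeq2 (1.34e-05) and in edgeR with the state as an added term (0.0318). It was also called there with no filter on low counts (0.0349), a fit that called 771 of 23717 genes. In the 4 Y-linked libraries both Glul and Cyp2e1 were called as lower in edgeR (-4.14 and -3.13, adjusted p = 0.00341 and 0.00474), beside 33.3% of all genes.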

How the data were processed

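Poly(A) RNA of 6 livers (3 KO, 3 WT) was sequenced. Expected counts per gene were deposited by the authors as estimated by RSEM. The submitters' processing notes name bcl2fastq 2.17, cutadapt 1.18, STAR 2.7.0f and RSEM 1.3.1 with build mm9, while all 55450 gene identifiers, versions included, were found in GENCODE M21 for GRCm38, from which positions were taken. The use of strand is not given in the sources used here. Columns were matched to samples by the descriptions and grouped by the titles, and 0 columns had no sample.

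Counts were rounded and filtered with filterByExpr (14539 genes), scaled by TMM and tested with the quasi-likelihood test of edgeR 4.0.16 in R 4.3.3 with the group as the only term. P-values were adjusted over all genes by Benjamini-Hochberg, at a threshold of 0.05. The SE is the log2 fold change divided by the square root of F. Log2 ratios within a state use an offset of 0.1 CPM, correlations a prior count of 2. A floor of 3 counts is 0.0515 to 0.0641 CPM. Alternatives used limma 3.58.1 and DESeq2 1.42.0. The fit was tested on simulated counts.

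The 9 genes and all lists were chosen with earlier results of these data known. Named are the 9 genes, Stk11, from each junction list up to 5 called genes or otherwise the 2 with the smallest p, Cldn5, Cldn7, Glul, Axin2, Cyp2e1, and the 2 genes most like each of the 9. Summed levels of macrophage markers were 96.2 to 226 CPM in KO and 139 to 192 CPM in WT. Those of stellate markers were 120.5 to 278 and 208 to 457 CPM. Lymphoid markers summed to 4.56 to 9.73 and 6.75 to 9.98 CPM, and mesothelial markers to 0.297 to 1.13 and 1.16 to 5.70 CPM. In this order 7, 8, 6 and 2 markers were tested, and edgeR called 0 in each list, against 3.37% of all genes. At an unadjusted p under 0.05 there were 0, 0, 1 and 1, against 26.3% of all genes. Log2 fold changes were negative for 5, 8, 5 and 2 markers, with medians of -0.38, -0.64, -0.80 and -1.94, against 7129 negative among all 14539 genes.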

Additional observations from a re-analysis of the deposited data

Results flagged for a closer look

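Marveld3 rose by different amounts in the 2 kinds of library. The log2 difference between KO and WT was smaller by 2.72 in the pair with Xist counts than in the libraries with Y-linked counts (interaction estimate -2.72, edgeR adjusted p = 0.0299 over all genes). The log2 ratios were 1.37 in the pair and 3.98 in the other 4 libraries. The test has 1 library per group in the first state and 2 residual degrees of freedom. The KO library of that state is KO 1, the knockout with the most Stk11 RNA. State and Stk11 level cannot be told apart there.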

How the results depend on the processing

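Over the 14 alternatives the 9 genes kept their direction and their side of the threshold in 110 of 126 fits, passed the threshold in 12 and changed sign in 4, all of Cldn14. Its log2 fold change was 0.0201 with library size alone, 0.0849 in the 4 Y-linked libraries, 0.15 without KO 3 and 0.10 without WT 1, and ran from -0.24 to 0.15 when 1 library was left out. The number of the 9 called as lower was 1 with DESeq2 and with the state as an added term (Ocln), 4 in the 4 Y-linked libraries, and 0 to 4 when 1 library was left out. The number called as higher was 1 (F11r) in those 4 libraries and 0 to 1 when 1 library was left out. Of all genes 490 were called (313 higher, 177 lower), and 511 with library size alone (380 higher, 131 lower). The number was 771 with no filter on low counts, 2290 with DESeq2, 1504 with the state as an added term, 4847 in the 4 libraries, and 6 (without WT 2) to 4473 (without KO 1) when 1 library was left out. With no filter 1607 genes had an interaction, against 421. With the replicate number as a block 105 genes and 0 of the 9 were called, and Dsg2, Cyp1a2 and Marveld3 were not (adjusted p = 0.0663, 0.0818 and 0.0859). Same-numbered libraries are different mice, and their deviations from the group means correlated at 0.18, 0.04 and 0.07. Between libraries of unlike number the values ran from -0.17 (KO 3 with WT 1) to 0.20 (KO 3 with WT 2). The alternatives for genes other than the 9 were added after seeing the data. The 9 genes had at least 191 counts per library, whereas Cldn4 had 4 to 22.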
